A study of Mus musculus with 28 samples.

Results

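A set of 6 array profiles made from 1X cDNA input, with 1 dye per array, carried the comparison of phenobarbital-exposed and control mouse livers described here. They were chosen by their titles, which name 1X input and no second channel, and are 6 of the 28 samples of the series. The livers came from male B6C3F1 mice, a hybrid mouse strain, with an age of 42 days on the labels. Exposed mice (3) had drunk water with 0.05% phenobarbital for about 4 weeks, and control mice (3) had drunk water without it. All 6 livers came from 16-year-old blocks of tissue that had been fixed in formalin and embedded in paraffin (FFPE), so that the controls share fixation and storage with the exposed mice. RNA was taken from the blocks with a Qiagen FFPE kit, copied and amplified as cDNA with the Sigma WTA2 kit and labelled chemically with Cy3 (KREAtech ULS). The series tests ways to bring RNA of old blocks onto Agilent expression arrays, and each mouse was measured on 1 array of 1 slide.

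Phenobarbital, a sedative drug, acts on liver cells through CAR, the constitutive androstane receptor. Activated CAR enters the nucleus, pairs with the retinoid X receptor and switches on genes of drug metabolism: cytochromes P450, which oxidize foreign compounds, the reductase that feeds them electrons, and transferases that conjugate the products. In the rodent liver the same receptor is known for enlarging the organ and for a wave of hepatocyte division.

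The probes past the test were a short list, mostly higher in exposed livers, with P450s and glutathione transferases among the largest differences. Of 55681 distinct non-control probes, 24619 were tested, those with 3 of 3 arrays of a group, exposed or control, called well above background by the scanner software. In the test of limma, 34 probes passed an adjusted p of 0.05, which is 0.138% of those tested. Of these, 32 were higher (0.13%) and 2 lower (0.00812%) in exposed livers. Without scaling between arrays the split was 18 higher and 7 lower, with the median of all probes at -0.29, and without exposed mouse 1 it was 13 higher and 7 lower. Differences over 2-fold, called or not, numbered 447 higher and 400 lower. The 34 probes past the threshold comprised 21 probes of 19 named genes, 8 probes tiled over genomic intervals of the array design and 5 probes without a gene symbol. At an unadjusted p of 0.05 the number was 2153 (8.75%). All 3 exposed arrays lay above all 3 control arrays for 1819 probes (7.39%) and below them for 1667 (6.77%). The median difference over all tested probes was 0.01 on the log2 scale, a value that the scaling of each array largely sets. A probe that missed the threshold is not shown to be alike in both groups. Since bulk liver was measured, fewer cells of a type and less RNA per cell cannot be told apart in any lower value, nor their opposites in a higher one. The labels give no more than 3 mice per group, and that number limits the precision.

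**Figure D1:**
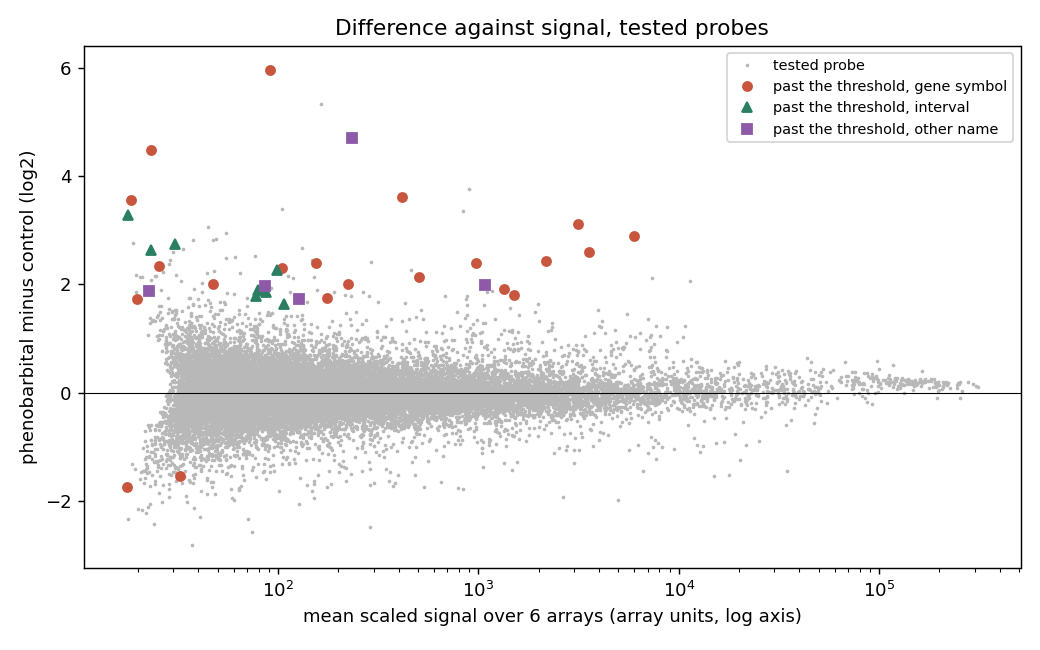
Difference between phenobarbital and control livers (log2) against the mean scaled signal over the 6 arrays (array units, log axis) for the 24619 tested probes. Grey points are tested probes, and coloured symbols mark the 34 past the threshold; 32 of them lie above 0.

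The promoters of 3 called P450 genes, 1 each of the Cyp2b, Cyp3a and Cyp2c families, are shown. These genes had the largest fitted differences among the called named genes, though Cyp2b10 and Cyp3a44 were below background in controls. They were chosen after their values were seen. Each window is RefSeq sequence of build GRCm38.p6, from 250 bases before to 50 bases after the annotated start, in the direction of the gene. Capitals mark the nuclear receptor half-site AGGTCA, its variant AGTTCA and the TATA box TATAAA, searched on both strands. Cyp2b10 lies on the + strand of chr7:25897408-25897707, Cyp3a44 on the - strand of chr5:145805825-145806124 and Cyp2c55 on the + strand of chr19:39006769-39007068.
Cyp2b10: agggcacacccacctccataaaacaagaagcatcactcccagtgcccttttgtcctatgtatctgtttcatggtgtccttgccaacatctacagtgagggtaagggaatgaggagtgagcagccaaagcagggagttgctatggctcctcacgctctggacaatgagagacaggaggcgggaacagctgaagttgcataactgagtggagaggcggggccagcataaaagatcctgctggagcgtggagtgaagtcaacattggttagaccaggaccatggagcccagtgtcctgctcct
Cyp3a44: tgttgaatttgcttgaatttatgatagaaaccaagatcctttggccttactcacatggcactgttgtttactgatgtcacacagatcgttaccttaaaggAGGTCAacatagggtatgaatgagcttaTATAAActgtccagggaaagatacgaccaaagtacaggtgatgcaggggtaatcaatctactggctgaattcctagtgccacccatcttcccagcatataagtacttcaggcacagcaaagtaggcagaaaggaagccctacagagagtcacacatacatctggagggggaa
Cyp2c55: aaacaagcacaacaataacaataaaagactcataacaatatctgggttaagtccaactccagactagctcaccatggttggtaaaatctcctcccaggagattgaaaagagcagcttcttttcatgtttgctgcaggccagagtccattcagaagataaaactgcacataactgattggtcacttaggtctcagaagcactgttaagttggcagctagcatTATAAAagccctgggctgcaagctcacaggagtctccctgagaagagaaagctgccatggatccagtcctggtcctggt
The Cyp3a44 window held AGGTCA 150 bases before the start and TATAAA 122 bases before it. The Cyp2c55 window held TATAAA 29 bases before the start, and none of these letters occur in the Cyp2b10 window. Among 27025 windows of the same length, 1 per gene, 16.0% held AGGTCA, 14.0% AGTTCA and 14.2% TATAAA. Of the 19 genes past the threshold 17 had a window in the table, and 3, 1 and 4 of them held these motifs in that order. The motifs do not overlap one another, and a match is a description of letters, not of binding.

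Hepatocyte markers were read first, as a check of the tissue label. All 8 hepatocyte markers, among them albumin (Alb) and transthyretin (Ttr), were well above background on all 6 arrays, none passed the test, and their median difference was -0.08 (-0.18 without control mouse 3 and 0.01 without exposed mouse 3). Probes well above background made up 49.0% ± 4.23 (SD, n = 3) in controls and 47.0% ± 1.23 (SD, n = 3) in exposed livers. The difference of -2.01 percentage points had p = 0.5 in an exact two-sided permutation test, whose smallest p is 0.1. No spot was saturated. The median SD within groups was 0.31 (log2), against 0.119 to 0.143 between replicate spots of one array. Over the 21305 probes detected on every array, the median correlation with the other arrays was 0.966 to 0.972 within a group and 0.958 to 0.971 across groups, and phenobarbital array 1 correlated slightly more with controls (0.971) than with its own group (0.967). Pancreatic enzyme genes differed widely among livers of both groups: Prss2, a trypsin, read 9883, 54221 and 57146 in controls and 5539, 10786 and 38017 in exposed livers. Of 18 tested markers of pancreas, fat and muscle none passed and none separated the groups. Without control mouse 1 all exposed arrays were lower for 7 of them, but separation is easier to reach on fewer arrays. The matching share over all names is not given, so this count cannot be read as a result about these markers. Their part in the results was not tested.

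Cyp2b10, the P450 by which CAR activation is usually read, had the largest change. Its scaled signal, a linear value in which the 75th percentile of each array stands at 553.7 units, was 14.1, 7.73 and 13.9 in the controls and 949, 584 and 687 in the exposed livers. No control array was well above background, and every exposed array was. The fitted log2 difference was 5.98 (SE 0.31, adjusted p = 0.000805). Since the controls give only a bound, the increase was at least 29.9-fold, measured against the lowest signal called well above background on each control array. Its relative Cyp2b9 read 9.35, 27.6 and 21.7 in controls and 175, 108 and 107 in exposed livers, again detected in exposed livers alone. With a difference of 2.83 (SE 0.42, adjusted p = 0.0674, at least 5.08-fold) it did not pass the test, although the groups lay far apart. Cyp2b23 stood at 0.96 with no overlap between the groups. Cyp2b19, a family member known from skin, had -0.52 with all exposed arrays below the controls. Neither passed. Cyp2b13 was detected on 1 control and 2 exposed arrays and was not tested. So 1 of the 4 tested Cyp2b genes was called, and their median was 1.90, or 1.65 with Cyp2b10 and Cyp2b9 at their lower bounds. These 2 genes entered the test through the exposed arrays alone. Read through 1 probe per name, as in all gene lists here, 0.144% of all names were called (0.134% higher and 0.0107% lower), 7.43% had all exposed arrays higher and 6.57% all lower, 8.32% had an unadjusted p under 0.05, and the median was 0.01. These families are close paralogs, and a probe may read more than 1 member.

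In the Cyp2c family, which oxidizes many drugs and fatty acids, 3 genes rose and 2 others lay lower without passing. Cyp2c55 read 116, 94.6 and 152 in controls and 1923, 1090 and 1454 in exposed livers, so that the lowest exposed array lay far above the highest control. Its log2 difference was 3.61 (SE 0.28, adjusted p = 0.00645). Cyp2c54 rose on 2 of its 3 probes, by 2.39 (adjusted p = 0.0393) and 2.14 (adjusted p = 0.04), while the third stood at 2.27 and was not called. Cyp2c50 rose from 890, 921 and 648 to 3327, 2424 and 2796, a difference of 1.80 (SE 0.23, adjusted p = 0.0441). Of 13 tested members 3 were called, all higher, 9 had no overlap with the exposed arrays above, and the median was 1.44. The exposed arrays alone brought 1 of the 13 into the test. Among the uncalled were Cyp2c65 (2.52, adjusted p = 0.22), with 1 control array at 11.8 and the others at 45.9 and 60.7, Cyp2c37 (1.79, adjusted p = 0.0843) and Cyp2c29 (1.36, adjusted p = 0.133), a common index of phenobarbital response in the mouse. On the other side, Cyp2c67 (-0.59) and Cyp2c68 (-0.86) had all exposed arrays below the controls without passing. Cyp2c70, a bile acid hydroxylase, stood at -0.06.

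In the Cyp3a family, all 8 tested members had every exposed array above every control array, with a median of 1.28, and 1 passed. That one was Cyp3a44, a P450 known from female mouse liver, which read 4.85, 6.21 and 3.99 in controls and 130, 111 and 92.5 in exposed livers. It was detected in exposed livers alone, with a difference of 4.48 (SE 0.24, adjusted p = 0.000805, at least 4.55-fold). Cyp3a11, the main 3A enzyme of adult mouse liver, read 6166, 6790 and 4549 against 13206, 14281 and 12484. Its difference of 1.21 (SE 0.22) had an adjusted p of 0.133, so a separation of the groups by more than the spread did not bring a call among 24619 tests. The other 6 lay between 0.78 for Cyp3a13 and 1.63 for Cyp3a59.

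The other P450 families gave 1 call. Of 15 tested members of the Cyp2a, Cyp2d, Cyp2e, Cyp2f, Cyp2j and related groups 1 was called, and the median was -0.05 (-0.21 without exposed mouse 2 and 0.08 without exposed mouse 3). The called gene was Cyp2a4, a steroid 15-alpha-hydroxylase that is more abundant in females, which read 682, 850 and 555 in controls and 2542, 2377 and 2913 in exposed livers (log2 1.92, SE 0.23, adjusted p = 0.0378). A further Cyp2a4 probe stood at 1.39. Cyp2e1, an abundant P450 of the pericentral zone, had -0.21. In the same list Cyp2u1 had the lowest value, -1.06 (adjusted p = 0.347), with all exposed arrays below the controls. None of the 8 tested Cyp4 genes, which oxidize fatty acids, was called, with a median of -0.04 and Cyp4v3 lowest at -1.03. Cyp1a2, a target of the dioxin receptor, had 0.80 (adjusted p = 0.429).

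**Figure D2:**
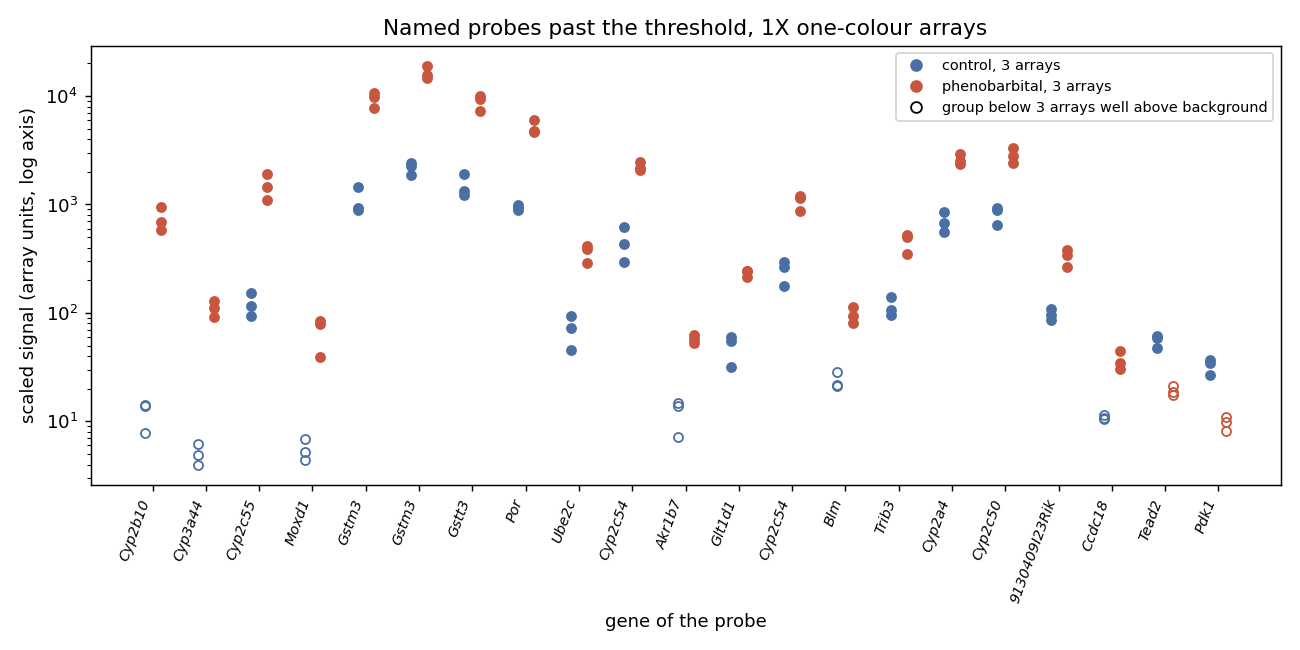
Scaled signal on each of the 6 arrays (array units, log axis) for the 21 named probes past the threshold, ordered by fitted difference, an order that for open points rests on values below background. Blue points are control and red points phenobarbital arrays, and open points mark a group with fewer than 3 arrays well above background; no probe shows overlap between the groups.

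Of the genes that serve the P450s, 1 electron donor passed the test and no heme gene did. Por, the reductase that passes electrons from NADPH to all microsomal P450s, read 883, 941 and 999 in controls and 4723, 5959 and 4676 in exposed livers. The controls lay close together, far below every exposed array, and the increase was 2.44 (SE 0.20, adjusted p = 0.00645). Alas1, the first and rate-limiting enzyme of heme synthesis, read 542, 315 and 1334 against 1893, 2079 and 2866. The groups did not overlap, but the spread of the controls left it uncalled (1.88, SE 0.48, adjusted p = 0.293). Of the later heme synthesis enzymes, Uros stood at -1.07 and was not called. In all 1 of 17 members was called, and the median was 0.04 (-0.09 without control mouse 3 and 0.11 without control mouse 2).

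Conjugating enzymes were led by glutathione transferases, which attach glutathione to reactive products. Gstm3, a mu-class member, rose on both of its probes. The brighter read 2257, 2429 and 1882 in controls and 14625, 15514 and 18981 in exposed livers (log2 2.90, SE 0.21, adjusted p = 0.00492). The other gave 3.13 (SE 0.26, adjusted p = 0.00645). Gstt3, a theta-class member, rose from 1220, 1900 and 1332 to 7314, 9936 and 9383 (2.60, SE 0.25, adjusted p = 0.0133). These were the 2 called of 21 tested genes of the list. A further 7 had all exposed arrays higher without passing, among them Gstm2 (1.24), Gstm4 (1.15) and Gstt1 (1.09), and the pi-class Gstp1 stood at 0.02. The median was 0.53.

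The transferases that add glucuronate or sulfate, listed with genes that supply their donors, gave no call. Of 14 tested genes of glucuronosyltransferases and UDP-glucuronate supply 6 had all exposed arrays higher and 1 lower, with a median of 0.32 and Ugt2b34 highest at 1.14 (adjusted p = 0.109). Of 5 tested genes of sulfotransferases and sulfate donor supply 3 had all exposed arrays higher, with a median of 0.72, and Sult1d1 came nearest to a call (1.37, SE 0.21, adjusted p = 0.0843). Among 18 drug transporters none was called and the median was 0.14. The sinusoidal uptake carrier Slco1a4 (1.91), the efflux pumps Abcb1a (1.46) and Abcc2 (1.19), the carnitine carrier Slc22a5 (1.18) and the efflux pump Abcc3 (1.10) each had all exposed arrays above the controls. Abcc4, another efflux pump, was not well above background on any of the 6 arrays.

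Aldehyde and ketone enzymes added a dim gene. Akr1b7, an aldo-keto reductase, read 14.7, 7.24 and 13.8 in controls, none of them well above background, and 57.2, 63.1 and 52.3 in exposed livers. It rose by a fitted 2.33 (SE 0.30, adjusted p = 0.0431, at least 2.37-fold). Aldh1a1, which oxidizes retinaldehyde, read 7587, 8194 and 5562 against 13252, 21363 and 15966 and was not called (1.24, adjusted p = 0.171). Of 24 tested members 1 was called and 7 had all exposed arrays higher, with a median of 0.14 that turned to -0.08 without control mouse 3. The exposed arrays alone brought 2 of the 24 into the test. Moxd1, a monooxygenase related to dopamine beta-hydroxylase, read 5.20, 6.83 and 4.39 in controls and 39.1, 84.7 and 78.7 in exposed livers, where alone it was detected (3.57, SE 0.34, adjusted p = 0.0133, at least 2.64-fold). Ephx1, the microsomal epoxide hydrolase, stood at 0.94 (adjusted p = 0.302). In the list of esterases, epoxide hydrolases and flavin monooxygenases that holds both, 1 of 23 tested genes was called, 6 had all exposed arrays higher and 3 lower. The exposed arrays alone brought 2 of the 23 into the test. The median was 0.01 (-0.07 without exposed mouse 1), the carboxylesterase Ces1e had the lowest value, and its relative Ces3b stood at -0.89.

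**Figure D3:**
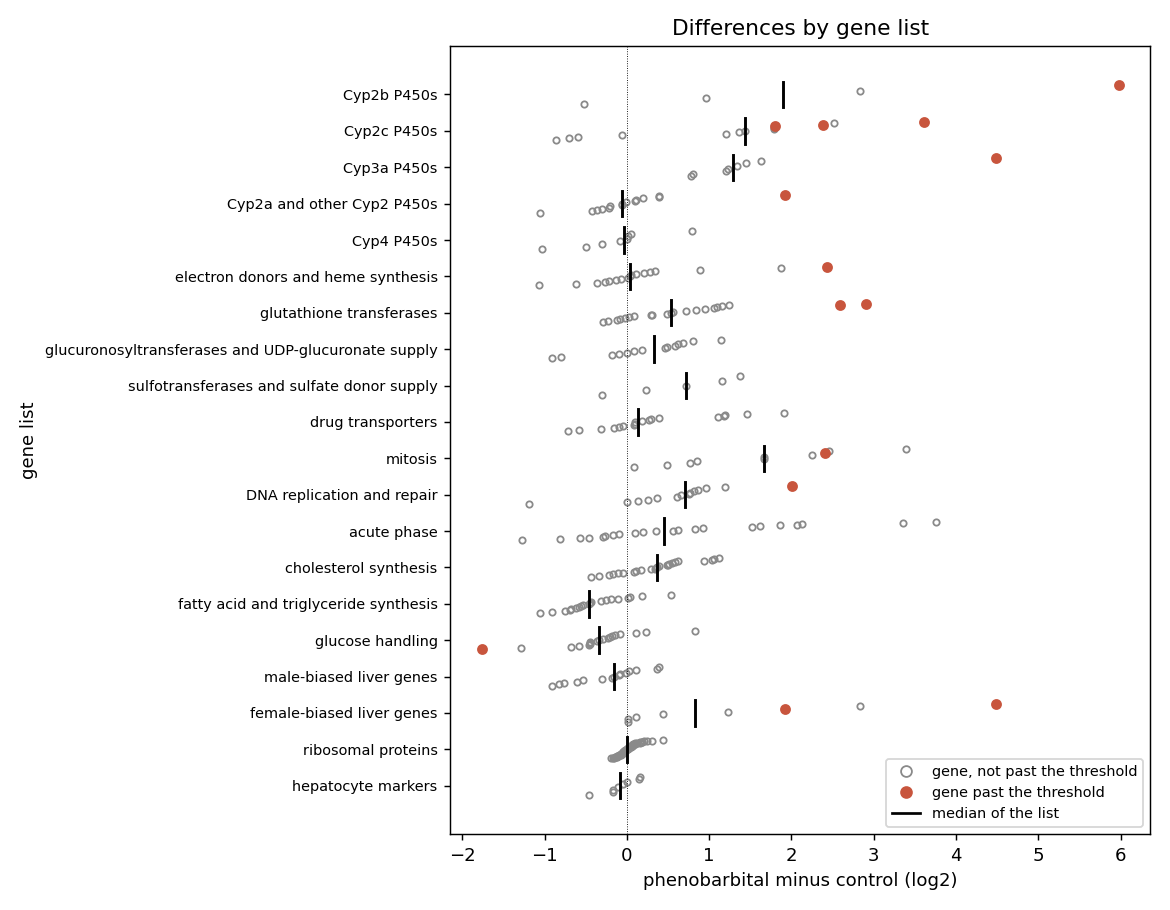
Difference between phenobarbital and control livers (log2) of the tested genes of 20 lists, 1 probe per gene. Red points passed the threshold and black bars are list medians, which run from -0.46 for fatty acid and triglyceride synthesis to 1.90 for the Cyp2b P450s (1.65 with genes undetected in controls at their bound).

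Many mitosis genes were too dim to test in this set, and 1 of those tested was called. Ube2c, the ubiquitin-conjugating enzyme of the anaphase-promoting complex, read 45.6, 93.5 and 71.9 in controls and 286, 411 and 385 in exposed livers. It rose by 2.40 (SE 0.30, adjusted p = 0.0431), while a further probe of the gene stood at 1.03. Cdc20, an activator of the same complex, read 64.2, 56.6 and 69.7 against 578, 219 and 332 and missed the threshold (2.46, SE 0.34, adjusted p = 0.0622). Of 25 mitosis genes on the array only 10 could be tested. Of these 1 was called, 8 had all exposed arrays higher, none lower, and the median was 1.66, from 0.08 for Mad2l1 to 3.39 for Ccnb1. Of the 10, 2 were tested through the exposed arrays alone, a filter that favours higher values, and 8 were above background on all 6 arrays. The 3.39 of Ccnb1, the mitotic cyclin, rests on control array 1 at 4.73 beside 135 and 52.5 (SE 1.04). Over all 25 genes, 29 of 75 gene-by-array readings were above background in controls and 37 of 75 in exposed livers.

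DNA replication and repair genes held 1 call. Blm, a helicase that resolves recombination intermediates, read 21.8, 28.6 and 21.3 in controls and 81.5, 94.3 and 113 in exposed livers, and was detected in exposed livers alone (2.01, SE 0.22, adjusted p = 0.0279, at least 3.86-fold). Of 26 genes 14 were tested, 6 had all exposed arrays higher and 1 lower, and the median was 0.71. The exposed arrays alone brought 1 of the 14 into the test and the control arrays alone 2. Mcm6, a subunit of the replicative helicase, stood at 1.20 (adjusted p = 0.167), and Mcm10, an initiation factor, at -1.19 (adjusted p = 0.298) with all exposed arrays below the controls. Readings above background numbered 41 of 78 in controls and 48 of 78 in exposed livers. Of 12 tested G1 cyclins and cell cycle inhibitors none was called, 2 had all exposed arrays higher and none lower, and the median was 0.29. The exposed arrays alone brought 2 of these 12 into the test, a filter that favours higher values.

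Stress and other genes outside these groups gave the remaining named calls. Trib3, a pseudokinase induced by the ATF4 stress pathway, read 94.9, 140 and 106 in controls and 524, 499 and 348 in exposed livers (2.01, SE 0.25, adjusted p = 0.0431). Glt1d1, a predicted glycosyltransferase, rose by 2.31 (SE 0.27, adjusted p = 0.0378). The uncharacterized 9130409I23Rik rose by 1.75, and Ccdc18, a coiled-coil protein, by 1.73, both at an adjusted p of 0.0431, with Ccdc18 detected in exposed livers alone and its second probe on no array. Gadd45b, a stress gene known to respond to CAR, read 152, 98.3 and 127 against 330, 438 and 540 and was not called (1.79, SE 0.26, adjusted p = 0.0686). The list of ATF4 and ER stress genes, with Trib3 as the call of 19, had 6 genes with all exposed arrays higher and none lower. Its median was 0.16 (0.07 without control mouse 1 and 0.22 without exposed mouse 1). Differences were below zero for 8 of the 19, with the lowest at -1.30, and 1 gene was tested through the exposed arrays alone. Among probes without a symbol, A_55_P2071906 was next to Cyp2b10 in size among the called probes. It read 60.2, 33.4 and 46.9 in controls and 1261, 1304 and 1030 in exposed livers (4.71, SE 0.26, adjusted p = 0.000805).

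The lower side held Pdk1 and Tead2, both dim. Pdk1, a kinase that restrains pyruvate dehydrogenase, read 34.2, 36.4 and 27.0 in controls and 10.9, 8.14 and 9.84 in exposed livers, where no array was well above background. The fitted change was -1.76 (SE 0.22, adjusted p = 0.0431), and the fall was at least 1.14-fold. It was the call of 19 tested genes of glucose handling, whose median was -0.34, or -0.30 with Pdk1 at its bound. Tead2, a DNA-binding partner of the Hippo coactivator YAP, read 47.7, 61.6 and 58.8 against 18.6, 21.0 and 17.7, also with no exposed array above background (-1.55, SE 0.20, adjusted p = 0.0464, at least 1.97-fold lower). A second Tead2 probe, above background on 2 control and 1 exposed arrays and so not tested, had mean log2 scaled signals of 5.58 in controls and 5.47 in exposed livers and did not show the fall.

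Receptors of this pathway did not pass. Nr1i3, which encodes CAR, read 256, 306 and 199 in controls and 213, 138 and 135 in exposed livers, with overlap (-0.66, SE 0.27, adjusted p = 0.54). Nr1i2, which encodes the related pregnane X receptor, had all exposed arrays higher by a small margin (0.63, adjusted p = 0.555). Ahr, the dioxin receptor, stood at 1.02 (adjusted p = 0.295), and Onecut1, a hepatocyte transcription factor, at -1.63 (adjusted p = 0.327), each without overlap. None of 20 sensors and partners was called, and the median was -0.08.

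Acute phase genes, whose products the liver secretes in inflammation, gave large differences but no call. Orm3, an orosomucoid, read 364, 154 and 258 in controls and 1410, 8252 and 3111 in exposed livers, and Lcn2, the iron-scavenging lipocalin, 319, 139 and 400 against 1218, 5405 and 2889. Exposed mouse 2 was highest and control mouse 2 lowest for both. Neither passed, with Orm3 at 3.76 (SE 0.61, adjusted p = 0.0886) and Lcn2 at 3.36 (SE 0.58, adjusted p = 0.114). Of 22 tested genes none was called, 9 had all exposed arrays higher and 3 lower. The median of 0.46 became 0.20 without exposed mouse 2. In that case 6 genes had all exposed arrays lower, but separation is easier to reach on fewer arrays. The matching share over all names is not given, so this count cannot be read as a result about these genes. Of the neutrophil markers 3 of 9 were tested, 1 of them through the exposed arrays alone. Of the 3, 2 had all exposed arrays higher, none was called, and the median was 0.86. S100a9 read 18.5, 16.0 and 25.6 in controls and 46.7, 154 and 56.9 in exposed livers (1.92, adjusted p = 0.233). The summed signal of all 9, tested or not, ran from 6717 to 8226 in controls and from 7567 to 8788 in exposed livers. Bright probes weigh most in that sum. Mpo and S100a8 were not well above background on any array. The part of these cells in the acute phase values was not tested.

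Lipid and carbohydrate genes gave no call beyond Pdk1. Of 24 tested cholesterol synthesis genes 9 had all exposed arrays higher (14 without control mouse 2) and 1 lower, with a median of 0.36; Hmgcs1, which makes the precursor of mevalonate, stood at 1.12 and Sqle, squalene epoxidase, at 1.04. Of 20 fatty acid and triglyceride synthesis genes none had all exposed arrays higher and 4 had all lower (12 without control mouse 3 and 10 without exposed mouse 1), with a median of -0.46 and Scd1, the stearoyl desaturase, at -0.91 (adjusted p = 0.483). Of 17 retinoid and steroid genes 3 had all exposed arrays higher and 4 lower (7 without control mouse 3). Rdh16 (-1.71, adjusted p = 0.343) and Rdh9 (-0.99, adjusted p = 0.175), retinol dehydrogenases, were the lowest. The counts without 1 array rest on fewer arrays, where separation is easier to reach. The matching share over all names is not given, so these counts cannot be read as results about the lists. The control arrays alone brought 2 of the 20 and 2 of the 17 into the test, a filter that favours lower values. As a reference, the 54 ribosomal protein genes had a median of 0.00 with no call.

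Genes with a sex bias in mouse liver were read as lists because Cyp3a44, Cyp2b9 and Cyp2a4, already described, are female-biased, so that the counts of the female-biased list in part restate them. Of 16 female-biased genes on the array 8 were tested, 2 were called and 4 had all exposed arrays higher, with a median of 0.83. The members that separated the groups were these P450s and Cyp3a16 (1.23), and Cyp3a44 and Cyp2b9 were tested through the exposed arrays alone. Among the others tested, Prom1 stood at 0.44, Acot3 at 0.11 and Fmo2 at 0.01, each with overlap between the groups. Another 6, among them Sult2a1, Sult3a1 and Cux2, were below the background call on all 6 arrays. Of 15 male-biased genes none was called, 4 had all exposed arrays lower and 1 higher, and the median was -0.16; Mup21, a major urinary protein, read 23986, 26117 and 19550 against 14706, 11461 and 10982 (-0.91, adjusted p = 0.258).

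Detection itself was tabulated for dim probes, since 44.2% to 51.9% of probes were well above background on these arrays, against 28.1% to 38.5% on the one-colour arrays at 1.5X. On all 6 arrays 21305 probes were well above background, and on none 22849. A further 53 probes were detected on all 3 exposed and no control array, and 130 on all 3 control and no exposed array. Of the 53 probes gained, 36 had a symbol and 10 were called, and of the 130 lost, 66 had a symbol and 2 were called. Since these probes were tested because one group was above background, those counts are a description of that choice.

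**Figure D4:**
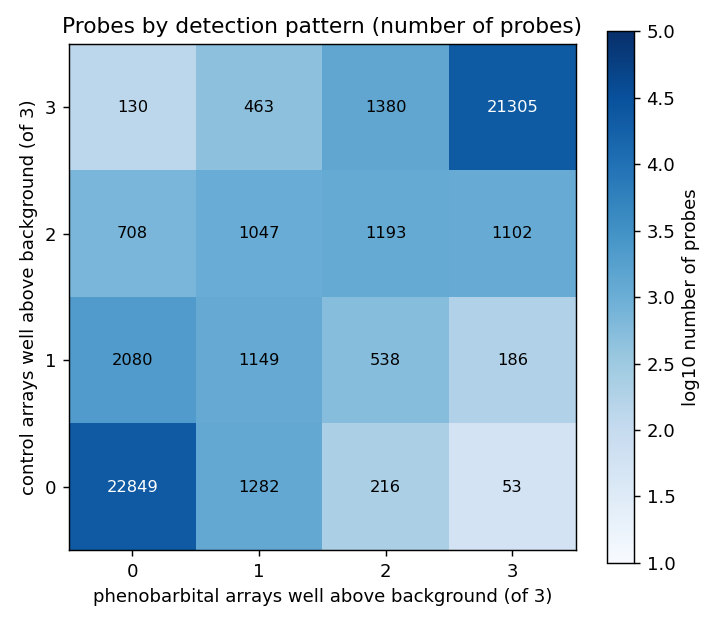
Number of probes by how many control arrays (vertical axis, 0 to 3) and phenobarbital arrays (horizontal axis, 0 to 3) were well above background. The corners hold 22849 probes on no array, 21305 on all 6, 53 on exposed arrays alone and 130 on control arrays alone.

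Some gained genes were not called, and the following are examples among them. Every gained gene entered the test through the exposed arrays alone, a filter that favours higher values. As picked examples, they do not show what the gained genes have in common. Esco2, which joins sister chromatids by acetylating cohesin, read 6.17, 22.6 and 26.2 in controls and 215, 90.1 and 111 in exposed livers (3.07, SE 0.57, adjusted p = 0.134, at least 4.88-fold). Zwilch, a kinetochore protein of the mitotic checkpoint, read 10.6, 8.85 and 16.5 against 69.8, 49.7 and 39.4 (2.15, adjusted p = 0.0641). Ncapd2, a condensin subunit, stood at 1.74, and Ckap2, a spindle protein, at 1.37. Cyp26a1, the P450 that degrades retinoic acid, read 13.1, 26.4 and 11.7 against 82.9, 59.2 and 61.0 (2.07, adjusted p = 0.0886), and Gsg1, a germ cell protein, came closest to a call (1.54, SE 0.21, adjusted p = 0.0517). Of the lost genes, Ctnnd2, a delta-catenin, had the largest bound, at least 3.16-fold lower, but control mouse 2 at 254 stood apart from 46.7 and 62.9 (-2.31, adjusted p = 0.361). Polr3f, an RNA polymerase III subunit, stood at -1.22 (adjusted p = 0.172).

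Of the tested probes, 275 were well above background on no array or channel of the other sets, and 1 of them, Pdk1, was called, too few to set against the 0.138% called over all tested probes. Of 4125 tested probes that no one-colour array at 1.5X called above background, 2774 were so on all 6 arrays here, and 2 were called: Pdk1 and A_55_P2183592, a probe without a symbol (1.74, adjusted p = 0.0489). The slide at 1.5X had the higher negative control signals, so the 4125 do not describe the probes alone. The spread was largest for dim probes. Tested probes were split by mean signal into 5 groups of like size. In the dimmest, with a median scaled signal of 43.7, the median SD within groups was 0.44, and in the brightest, with 1632, it was 0.22. Calls fell in all 5 groups, 11, 6, 5, 4 and 8 from dim to bright. Of the called probes 10 were gained and 2 lost, each tested only through the group where it is high. The other group was below background, so their low mean signal follows in part from that choice.

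The same 6 mice were measured at 1.5X input on another slide, and the difference of the 2 effects was tested within mice. None of 16432 probes passed (0.0% in limma, 935 or 5.69% at an unadjusted p of 0.05). Cyp2b10 had 5.98 at 1X and 6.44 at 1.5X , Por 2.44 and 2.35, and Cyp2c55 3.61 and 3.84. Blm had 2.01 and 3.54, and Cyp3a44 had 4.48 and 3.24. Cyp2b10, Blm and Cyp3a44 were undetected in controls at both inputs, so their fitted values rest on signals below background and the difference between inputs cannot be read. Akr1b7, Moxd1, Ccdc18, Pdk1 and Tead2 could not be compared, since at 1.5X no group had them above background on all 3 arrays.

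The array design also tiles genomic intervals with probes for both strands or 1 strand, named by mm9 coordinates in the file headers. Of 3540 intervals 2263 had a tested probe, 4 had a called probe and all 8 called probes, of 6066 tested, were higher. Over all tested probes of any kind 0.138% were called. Over all tested interval probes 6.38% had all exposed arrays higher and 6.69% all lower. The chromosome 4 interval chr4:109071198-109078776 had 5 probes, all on the forward strand and all higher, 4 of them called at 1.64 to 1.90. The first of these read 39.9, 43.7 and 40.1 in controls and 148, 158 and 156 in exposed livers, and the uncalled probe stood at 1.53 (adjusted p = 0.0671). In the interval chr17:95150800-95180650, 1 forward probe (3.28, adjusted p = 0.00645, at least 2.29-fold) and 1 reverse probe (2.74, adjusted p = 0.0133, at least 3.27-fold) were called, each detected in exposed livers alone. The reverse probe of chr5:35893909-35899497 rose by 2.27 (adjusted p = 0.0155), and a forward probe of chr10:94134000-94149200 by 2.65 (adjusted p = 0.0461, at least 2.40-fold).

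Some intervals had most probes on one side without a call. Of 792 intervals with 3 or more tested probes, 18 had at least 3 probes with all exposed arrays higher and 18 had at least 3 with all lower. Probes of an interval share transcripts and are not independent. In chr9:78107225-78118850, 7 of 8 tested probes were higher on all exposed arrays, on both strands, with a median of 1.15. In chr19:5834117-5835940 all 3 reverse probes were lower, one reading 53705, 64249 and 53683 in controls and 31184, 17881 and 16317 in exposed livers (-1.45, adjusted p = 0.137). It lies within the longer interval chr19:5771425-5848475 of the design, where 4 of 11 tested probes, 10 of the 11 on the forward strand, were lower on all exposed arrays. In chr16:23992037-24001037, 9 of 13 tested probes were lower on all exposed arrays with a median of -1.65, but exposed mouse 2 stood far below the others. A reverse probe read 9417, 10362 and 9921 in controls and 5486, 505 and 5554 in exposed livers, and without exposed mouse 2 the median was -0.63. Of 1067 intervals with probes for both strands, 651 had tested probes on both, 298 on 1 strand and 118 on neither. Strand use in the labelled cDNA was not tested.

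**Figure D5:**
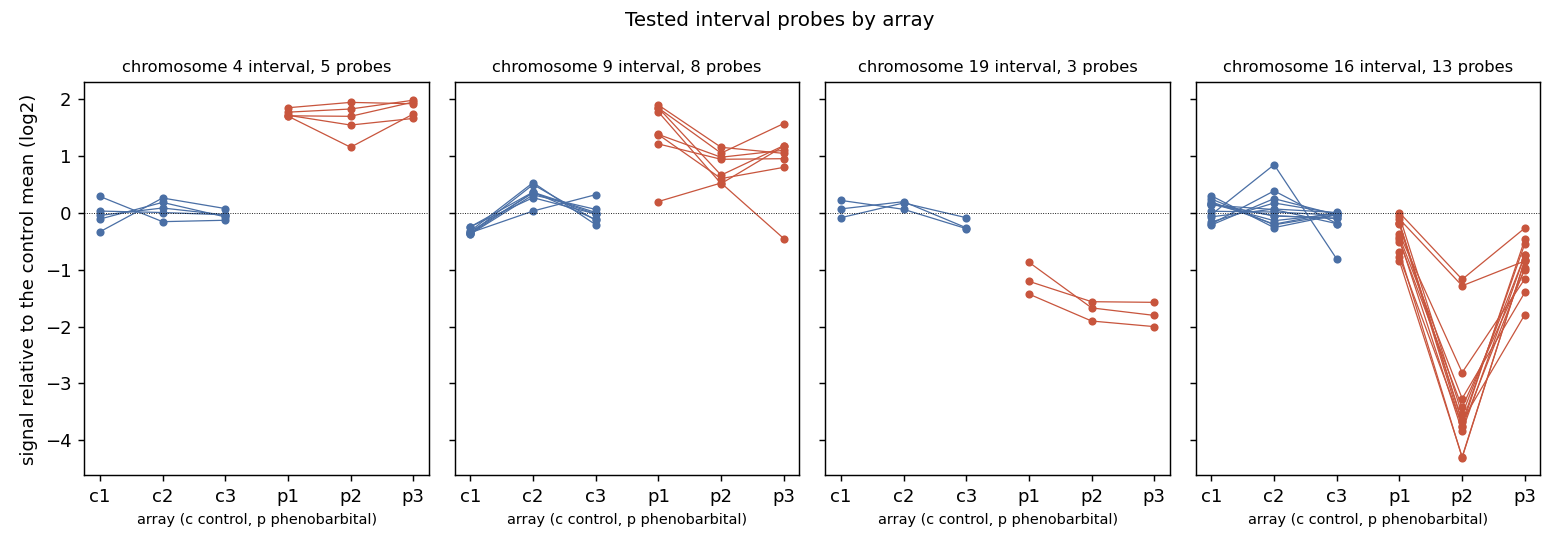
Signal of each tested probe relative to its control mean (log2) on control arrays c1 to c3 and phenobarbital arrays p1 to p3 in 4 intervals, with a line joining the values of a probe within a group. Exposed arrays lie above the controls for all 5 probes on chromosome 4, and phenobarbital array 2 lies far below the rest on chromosome 16.

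Few calls survived the loss of an array, and 4 of the 34 probes were kept whichever array was left out: Cyp2b10, Cyp3a44, the brighter Gstm3 probe and A_55_P2071906. Without 1 array the number of calls fell to between 4 (exposed mouse 3) and 20 (exposed mouse 1), with 5 without exposed mouse 2, 6 without control mouse 1, 9 without control mouse 2 and 10 without control mouse 3. Of the 34 calls 21 were kept in none of these. Fitted differences of all 34 kept their sign whichever array was left out. Among lost calls, Por ran from 2.32 to 2.50, Gstt3 from 2.47 to 2.79 and the chromosome 10 interval probe from 2.30 to 2.98. A fit on fewer arrays has less to estimate the spread from, so a lost call does not show that 1 array carried it. Within each of the 2 rows of the slide, on which arrays of both groups lay, all 34 had the same sign and exceeded 1 on the log2 scale, but they were chosen on these same arrays and 1 group has a single array in each row. With the row as a block 9 calls were made, in a fit that also has less to estimate the spread from.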

How the data were processed

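Scans were read by the authors in Agilent Feature Extraction (version 11.0.1.1, per the file headers). For every spot the deposited tables hold an intensity (the background-subtracted processed signal, in Cy3 and not scaled between arrays) and flags (unit: other) for well above background, outlier and saturated spots. The deposited series matrix held the same processed signal for these arrays; for two-colour arrays it holds log10 ratios of both channels, as the authors deposited them, which were not used. Arrays have no count depth.

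Control spots and outlier spots (132 to 173 per array) were left out, and 11 tested probes lacked a value on an array for that reason. Spots of a probe were averaged as log2 values, and each array's 75th percentile over the 21305 probes well above background on all 6 arrays was subtracted. A probe was tested where 3 of 3 arrays of either group had it well above background. The test was limma 3.58.1 (lmFit and eBayes, R 4.3.3), at 0.05 after Benjamini-Hochberg adjustment over all tested probes. The difference between inputs was fitted on each mouse's 1X minus 1.5X values. Fits were tested on simulated data. P-values set a group difference against the spread among the mice of a group. Each mouse had 1 array per input, so mouse, block, preparation and array cannot be told apart in that spread.

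Where a group had a probe above background on none of its arrays, the fold is given as a lower bound. Accessions in the files were matched to RefSeq symbols (27229 probes, 20656 symbols); the others kept their file names. The comparison was described over 50 gene lists, 1 probe per gene (the brightest). The genes named were all called genes (up to 25 higher and 10 lower), the largest bounds among probes gained (15) and lost (5) at an unadjusted p of 0.01, the called probes of this set alone, the 2 to 4 largest changes of a list, a panel of known phenobarbital genes and the 5 smallest p-values of the difference between inputs; only some of these are printed. Other list members were chosen after their values were seen. Members and lists were chosen with earlier results of these data known. Of the panel, Cyp2a5 and Ugt1a1 had no probe under that name. Figures used matplotlib 3.10.9.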

Additional observations from a re-analysis of the deposited data

How the results depend on the processing

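The 34 probes called became 55 with normexp background correction and quantile normalization (offset 50), 61 with an intensity trend in eBayes, 9 with the slide row as a block, and 5 with no filter on dim probes, where 55681 probes were tested. Leaving out 1 array gave between 4 and 20 calls. Without scaling between arrays the median of all probes was -0.29 and 25 probes were called, 18 higher and 7 lower (72.0% higher against 94.1%). Quantile normalization, the 75th percentile over all probes, the series matrix values, probes well above background on all 6 arrays and 1 probe per name gave 26 to 34 calls. Among probes on all 6 arrays 21 of the 34 were shared.

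Mice of the 2 groups carry the same replicate numbers but are different animals, and the main fit did not pair them. Deviations from the group mean correlated at 0.035, -0.0869 and 0.232 for same-numbered mice and at -0.316 to 0.249 for the other pairs. Deviations within a group of 3 balance out, so these correlations cannot decide whether the numbers pair the mice. With the mouse number as a replicate block 3 probes were called, all of them among the 34, in a fit that has less to estimate the spread from.

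The difference in the share of probes above background was -2.01 points, with a range of -4.43 to -0.55 without 1 array. Probes gained numbered 53 and between 71 and 153 without 1 array, and probes lost 130 and between 192 and 653. With an array left out both patterns are easier to meet, so these counts rise by design. The medians and counts of lists and intervals without 1 array, and list medians with genes at their bound, were added after seeing the data. The signal over background limits what dim probes can show: the lowest signal called well above background was 20.1 to 31.6 units, and below it a value gives only a bound.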

Other observations

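The largest difference without a call belonged to Nsg1, a membrane protein of neuronal endosomes, and rested on 1 array. Its probe read 11.9, 33.0 and 43.3 in controls and 81.3, 437803 and 32.3 in exposed livers, so that exposed mouse 2 stood far above all others (log2 5.35, SE 3.13, adjusted p = 0.702 in limma). This gene was named after its values were seen.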
